A study of Mus musculus with 2 samples.

Results

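The genes described here are 6 matrix metalloproteinases (Mmp3, Mmp10, Mmp13, Mmp9, Mmp2 and Mmp14) and 4 inhibitors of such enzymes (Timp1, Timp2, Timp3 and Reck). Their probes were picked out of the non-normalized intensity table by gene symbol or Entrez gene number, and this matching uses no measured value. The genes themselves were chosen with earlier results of these data known. All 10 genes were on the array, with 19 probes, among 31165 gene symbols in all, and every one of the 10 was detected on both arrays, as were 13460 genes of the whole table. The RNA came from CT26, a mouse colon carcinoma cell line. The control group was CT26 transduced with the empty lentiviral hairpin vector pLKO.1, and the knockdown group was CT26 transduced with pLKO.1 carrying a short hairpin RNA against CDK8, so both groups share the vector backbone. Each group had 1 array. The labels name neither the hairpin sequence nor whether the transduced cells were pooled or came from 1 clone, and a second hairpin was not part of the samples analysed here.

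Matrix metalloproteinases are zinc-dependent enzymes that cut proteins of the extracellular matrix and the cell surface. Stromelysins have broad substrates, collagenases open the fibrillar collagen helix, and gelatinases digest the unwound collagen and basement membrane collagen. Most are secreted as inactive proenzymes and are blocked after activation by tissue inhibitors of metalloproteinases, the TIMPs, or at the membrane by the anchored glycoprotein Reck. In carcinomas these enzymes are known for their part in invasion, and the series title places the question of this comparison in colon cancer metastasis to the liver and the metalloproteinase network under CDK8, a kinase of the Mediator complex.

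The 3 metalloproteinase genes that were lower on the knockdown array (Mmp3, Mmp10 and Mmp13) and the inhibitor gene that was higher (Timp3) are shown here by the bases in front of their starts. These are the 250 bases upstream of each gene start in RefSeq, assembly GRCm38.p6, all on the plus strand and written 5′ to 3′. Capitals mark the letters TGANTCA, an AP-1 motif that reads the same on both strands, and the letters of a TATA box, TATAAA. Each was searched on both strands. The windows are chr9:7445572-7445821 for Mmp3, chr9:7502092-7502341 for Mmp10, chr9:7272264-7272513 for Mmp13 and chr10:86300162-86300411 for Timp3.
Mmp3: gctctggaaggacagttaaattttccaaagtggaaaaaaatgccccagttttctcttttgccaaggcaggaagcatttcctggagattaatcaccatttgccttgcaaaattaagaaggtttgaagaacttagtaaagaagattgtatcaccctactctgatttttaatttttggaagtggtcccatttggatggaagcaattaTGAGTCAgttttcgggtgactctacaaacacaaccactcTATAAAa
Mmp10: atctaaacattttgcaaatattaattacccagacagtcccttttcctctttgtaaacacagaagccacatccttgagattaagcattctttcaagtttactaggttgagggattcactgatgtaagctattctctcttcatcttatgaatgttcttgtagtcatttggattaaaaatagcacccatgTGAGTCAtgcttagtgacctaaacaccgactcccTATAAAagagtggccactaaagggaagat
Mmp13: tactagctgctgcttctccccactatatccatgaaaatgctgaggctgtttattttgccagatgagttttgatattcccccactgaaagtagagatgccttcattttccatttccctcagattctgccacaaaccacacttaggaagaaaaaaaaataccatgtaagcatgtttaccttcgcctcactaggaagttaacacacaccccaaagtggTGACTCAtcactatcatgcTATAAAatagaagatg
Timp3: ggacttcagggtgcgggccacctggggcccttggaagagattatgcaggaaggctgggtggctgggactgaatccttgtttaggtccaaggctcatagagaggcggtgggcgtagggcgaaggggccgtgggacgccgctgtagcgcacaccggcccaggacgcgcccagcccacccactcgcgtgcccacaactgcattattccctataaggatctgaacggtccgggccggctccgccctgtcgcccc

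The 3 metalloproteinase windows carried the same pair of motifs in the same order. The AP-1 letters began 46 bases before the start of Mmp3, 63 before that of Mmp10 and 35 before that of Mmp13. The TATAAA letters followed downstream, beginning 7, 29 and 16 bases before the start. Between the matches lay 32, 27 and 12 bases. RefSeq windows of 300 bases, reaching 50 bases past the start, were found for 8 of the 10 genes, all but Mmp2 and Mmp9. Neither set of letters occurred in the windows of Mmp14, Timp1, Timp2, Timp3 or Reck. Mmp14 was thus the only protease without a 2-fold drop whose window could be searched. Among all 32851 such windows of the mouse table, 7.81% held the AP-1 letters, 13.6% TATAAA and 1.54% both. A match describes letters and is neither a binding site nor a cause of a level.

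Further motifs were searched in the same windows. The ETS-type letters CAGGAAG stood once in the windows of Mmp3 and Timp3 and 3 times in that of Timp1, against 13.3% of all windows with at least 1. The short SMAD letters CAGAC, present in 49.6% of all windows, were found in that of Mmp10. An NF-kB motif (4.79% of all windows) and the longer SMAD letters GTCTAGAC (0.213%) were in none of the 8. Promoter base composition also differed: G and C made up 37.7% to 43.7% of the windows of Mmp3, Mmp10 and Mmp13, and 67.0%, 68.7% and 69.3% of those of Timp3, Timp2 and Reck. Timp1 at 55.0% and Mmp14 at 56.0% lay between them.

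**Figure D1:**
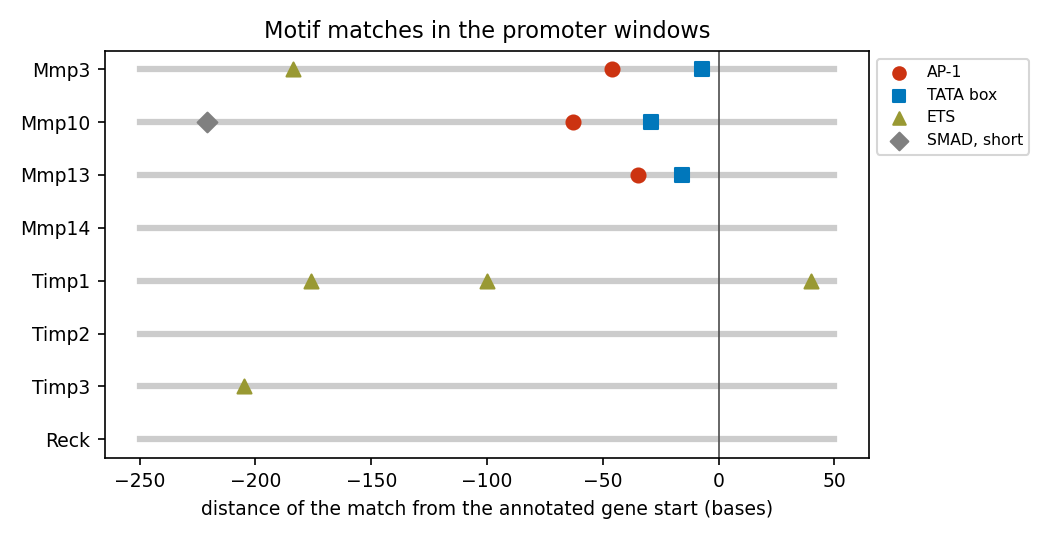
Positions of motif matches (symbols) along the RefSeq promoter windows (grey bars) of 8 members. The horizontal axis is the distance in bases from the annotated gene start to the first base of each match. Of these 8, only Mmp3, Mmp10 and Mmp13 have an AP-1 and a TATA box match, and in each the AP-1 match lies upstream. Mmp2 and Mmp9 had no window.

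The arrays were close in overall signal, with summed raw intensities of 14010100 for the control and 14564500 for the knockdown. Intensity is in arbitrary scanner units. The dim probes of each array peaked at a background of 88.7 in the control and 88.1 in the knockdown, and a probe counted as detected above 94.7 and 93.9 respectively, the upper 1% of that background. Differences below are log2 values of the knockdown minus those of the control, after background correction and quantile normalization. With 1 array per group no value has a replicate check and no p-value was computed. As a yardstick within these arrays, differences of probes for the same gene had a pooled SD of 0.22 over 4404 genes, or 0.14 over 2274 genes when all probes were bright (raw intensity at least 1.5 times background). This SD covers probe disagreement and not the spread between cultures. Cdk8, the gene the hairpin targets, read 992.5 in control and 317.9 in knockdown cells at its detected probe and differed by -1.99. The other Cdk8 probes were not above background on either array.

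The stromelysin genes Mmp3 and Mmp10 and the collagenase gene Mmp13 were lower on the knockdown array, and the inhibitor gene Timp3 was higher. Of the 10 genes, 3 were at least 2-fold lower (Mmp3, Mmp10, Mmp13) and 1 at least 2-fold higher (Timp3). Over all 13460 genes detected on both arrays, 0.542% were at least 2-fold lower and 0.498% at least 2-fold higher. The members were chosen with earlier results of these data known, so these shares are a description and not a test. The median difference of the 6 proteases was -0.89 and that of the 4 inhibitors 0.18, beside -0.01 over all detected genes. Of the 19 member probes, 16 passed the limit on both arrays, 2 passed it in control cells alone and 1 in knockdown cells alone. Of those 16, 5 were at least 2-fold lower and 2 at least 2-fold higher, against 0.548% and 0.537% of all 18992 probes detected on both arrays. Among the 11 member probes bright on both arrays, 4 were at least 2-fold lower and 1 at least 2-fold higher, against 0.498% and 0.507% of all 11844 bright probes. A limit of 1.5-fold gave the same 3 and 1 members, against 2.26% of all genes lower and 2.1% higher.

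**Figure D2:**
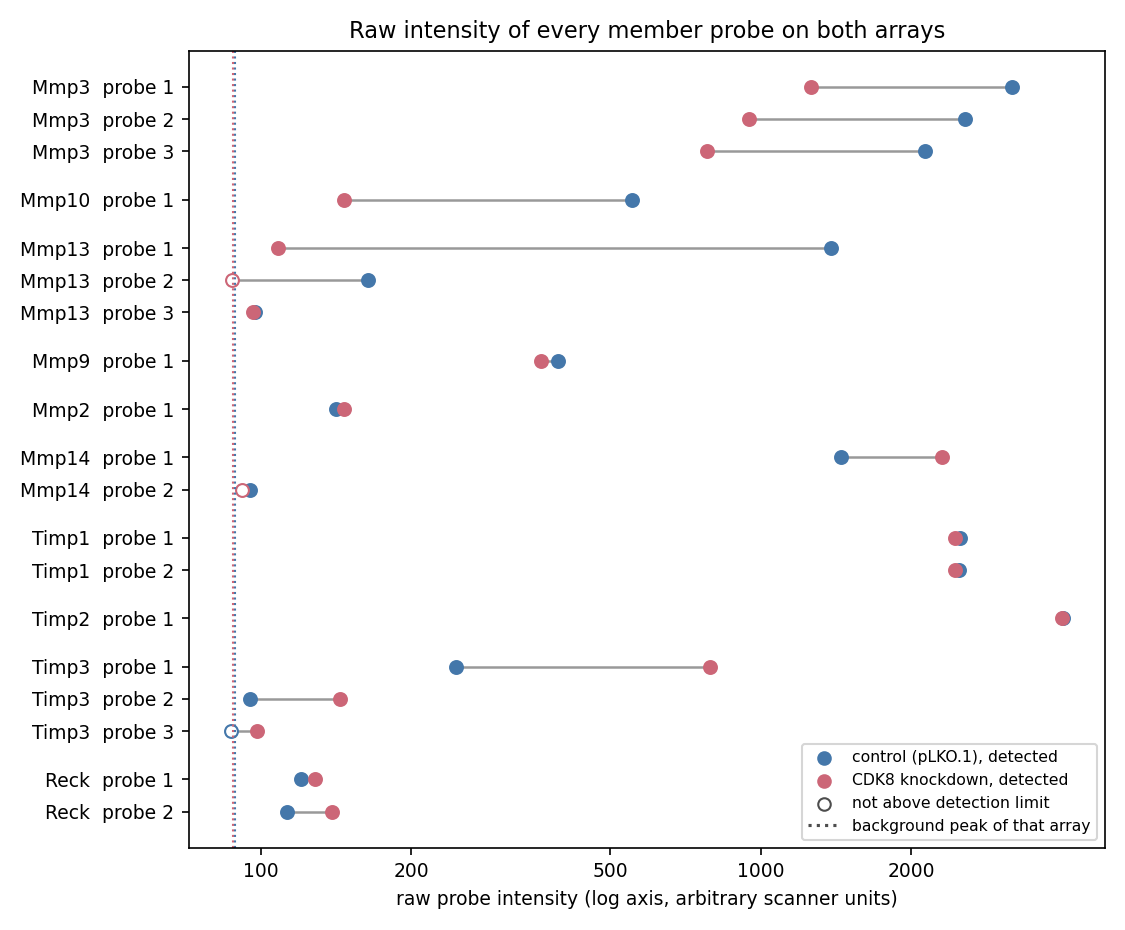
Raw intensity (log axis, arbitrary scanner units) of the 19 probes of the 10 genes, 1 line per probe, on the control (blue) and the knockdown array (red). Open circles are not above the detection limit and dotted lines mark each array's background peak. All 3 Mmp3 probes, the Mmp10 probe and the brightest Mmp13 probe are lower in the knockdown, while the Timp1 and Timp2 probes nearly coincide.

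Mmp3 encodes stromelysin-1, which cuts proteoglycans, fibronectin and basement membrane proteins and activates other proenzymes. Its brightest probe read 3185.5 in the control and 1258.3 in the knockdown. The second probe read 2558.3 and 947, and the third 2134.6 and 780.9. All probes were far above background on both arrays and moved by nearly the same amount, -1.46, -1.56 and -1.61. The mean of -1.54 (2.92-fold lower) therefore rested on 3 probes within a range smaller than the pooled SD of 0.22. Mmp3 ranked 20th from the lowest among 13460 genes.

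Mmp10 encodes stromelysin-2, the closest relative of Mmp3. It was measured by 1 probe, which read 552.9 in the control and 147 in the knockdown. Both readings were above background, and the difference of -2.76 (6.79-fold lower) was the lowest of all genes detected on both arrays. The size depended on the background, since the knockdown reading lay 58.9 units above the background peak. Without background correction the difference was -1.97, and with plain subtraction it was -3.07.

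Mmp13 encodes collagenase-3, the main interstitial collagenase of mouse tissues. Its brightest probe read 1383.7 in the control and 108.2 in the knockdown, which was 20.1 units above background. The raw readings differed 12.8-fold, and after background correction the difference was -5.23, the lowest of all 18992 probes. The second probe read 163.7 in the control and 87.5 in the knockdown, where it was not detected. These raw readings differed 1.87-fold, and the probe was at least 4.30-fold lower after background correction, a size that depends on that correction. The third probe read 97.4 and 96.5, just above the detection limit on both arrays, and differed by -0.03. The probes thus split into a pair with a large difference and 1 close to background with none. The gene mean of -2.55 averages over them, and across processing settings it ranged from -5.23 to -1.54.

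Mmp3, Mmp10 and Mmp13 lie in the same run of genes. In the RefSeq gene table, 10 metalloproteinase genes follow each other on chromosome 9 with no other protein-coding gene between them, in the order Mmp13, Mmp12, Mmp1b, Mmp3, Mmp1a, Mmp10, Mmp8, Mmp27, Mmp20 and Mmp7. Of these, 4 were detected on both arrays, the 3 lower genes and Mmp1a, an interstitial collagenase gene. Mmp1a, which lies between Mmp3 and Mmp10, read 129 in the control and 131.1 in the knockdown at its brightest probe, and the gene differed by 0.01. The other 6 genes were not above background on either array, so no difference could be read for them. Dcun1d5, the neighbour on the Mmp13 side, read 832.5 and 774.9 and differed by -0.20. The genes of chromosome 9 as a whole had a median of -0.01 over 560 genes.

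The gelatinase genes showed no such drop. Mmp9 encodes gelatinase B, whose single probe read 392.8 in the control and 364 in the knockdown. The difference of -0.23 was just beyond the pooled probe SD and placed Mmp9 2109th from the lowest of 13460 genes. Mmp2 encodes gelatinase A and its probe read 141.3 and 146.5, a difference of 0.05. These Mmp2 readings lay 52.6 and 58.4 units above background, and the difference was smaller than the probe SD under each setting tried (0.03 to 0.12).

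Mmp14, the membrane-type enzyme that activates the Mmp2 proenzyme on the cell surface, went the other way at its bright probe. That probe read 1449.4 in control and 2302 in knockdown cells. Its difference was 0.63 and lay between 0.61 and 0.70 over 7 other ways of scaling. The other Mmp14 probe, matched by symbol, read 95.3 and 91.6 and passed the limit in control cells alone, at least 1.04-fold lower on the corrected scale, with differences from -0.45 to 0 over other ways of scaling. The gene mean was 0.22 with both probes and 0.63 with the bright one alone. The Mmp14 gene is on chromosome 14. The 347 detected genes of that chromosome had a median difference of 0.21, and 80.1% of them were above 0, while no other chromosome with at least 50 detected genes had a median below -0.08 or above 0.06. The part of that shift in the Mmp14 value was not tested.

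Timp3, the inhibitor that stays bound to the extracellular matrix and also blocks several ADAM proteases, was the member with the highest difference. Its brightest probe read 245.7 in control and 791.2 in knockdown cells and differed by 1.96. The second read 95 and 144.2, a difference of 1.65, with the control reading at the detection limit. The third read 87 in the control, where it was not detected, and 98.4 in the knockdown, 1.13-fold apart as raw readings and at least 1.18-fold on the corrected scale, and with both values at the floor under plain subtraction and in the deposited processed values. The raw reading of each probe was thus higher on the knockdown array. The mean of 1.39 (2.63-fold higher, 30th from the highest gene) includes the third probe, whose control reading was at background, and with the probes detected on both arrays alone it was 1.80. It fell below 2-fold with an offset of 50 (0.96) and without background correction (0.80), while the bright probe stayed between 1.61 and 2.06 over 7 ways of scaling.

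Reck, a membrane-anchored inhibitor of several metalloproteinases including Mmp9, Mmp2 and Mmp14, had a smaller difference from dim probes. The first Reck probe read 120.6 in control and 128.6 in knockdown cells and differed by 0.19. The second, matched by symbol, read 112.7 and 139, a difference of 0.69. Both were higher in the knockdown, but they disagreed by more than the pooled probe SD, and the mean of 0.44 ranged from 0.18 to 0.69 over settings.

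The inhibitor genes with bright probes only, Timp1 and Timp2, were close to equal on the arrays. Timp1, whose product binds the Mmp9 proenzyme, read 2507.6 and 2450.8 at one probe and 2493.7 and 2446.1 at the other, with differences of -0.08 and -0.07. Timp2, whose product takes part with Mmp14 in activation of the Mmp2 proenzyme, read 4026.5 and 4000.1, a difference of -0.10. Each of these differences was smaller than the pooled probe SD, also for bright probes alone. In the set of genes that act together on the Mmp2 proenzyme, Timp2 therefore differed by -0.10 and Mmp2 by 0.05. Mmp14 differed by 0.22 as a gene mean and by 0.63 at its bright probe alone.

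**Figure D3:**
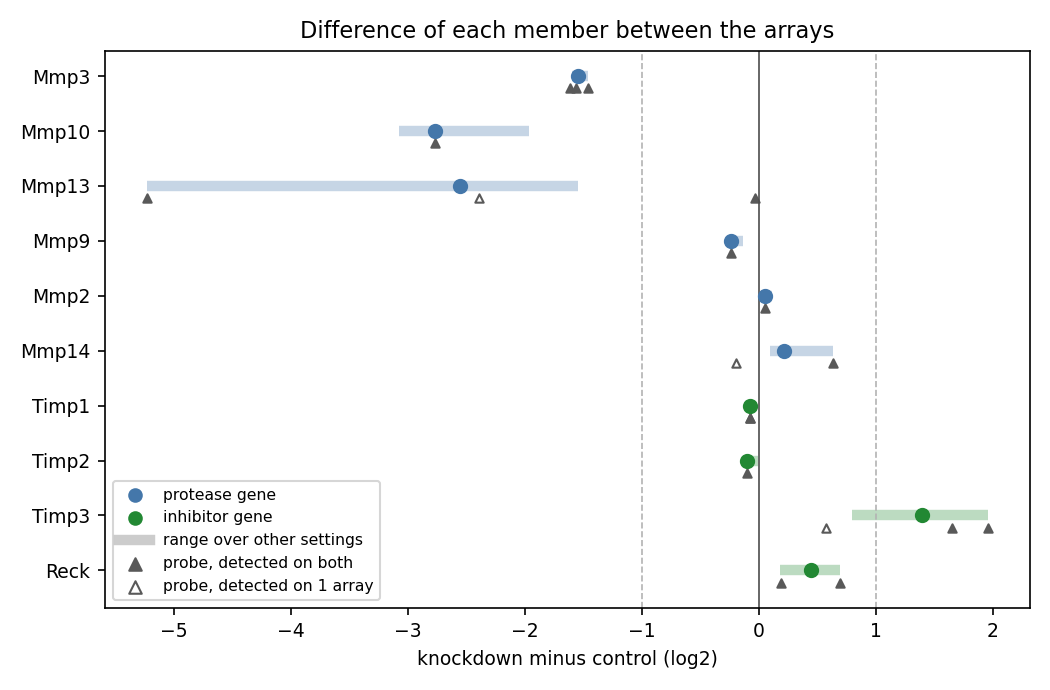
Difference of each gene (large points, blue for proteases and green for inhibitors) and of each probe (triangles, open where 1 array only detected the probe), knockdown minus control on the log2 scale. Shaded bars span the other processing settings and dashed lines mark 2-fold. The bars of Mmp3, Mmp10 and Mmp13 stay beyond 2-fold lower, and that of Timp3 crosses the 2-fold line.

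The balance between proteases and inhibitors was taken on each array as the mean log2 value of the 6 proteases minus that of the 4 inhibitors. Probes differ in brightness per transcript, so the level of this balance has no meaning by itself and only its shift between arrays was read. It was -0.28 for control and -1.83 for knockdown cells, a shift of -1.55 (2.93-fold towards the inhibitors). The protease side contributed -1.14 and the inhibitor side 0.42. With any 1 member left out the shift stayed between -1.82 and -1.23. Without Mmp3, Mmp10 and Mmp13 together, a choice made after the values were seen, the shift of Mmp2, Mmp9 and Mmp14 against the inhibitors was -0.40. Mmp9, Mmp2 and Mmp14 went both ways, at -0.23, 0.05 and 0.22. That remaining shift thus lay on the inhibitor side, where Timp3 was highest at 1.39. A ratio of summed linear intensities, which weighs bright probes most, gave -1.23.

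The shift was not spread evenly over protease and inhibitor pairs. Of 24 pairs of 1 protease and 1 inhibitor, which share genes with each other, 20 shifted towards the inhibitor and 4 towards the protease, and 15 shifted towards the inhibitor by at least 2-fold. The 12 pairs of Mmp3, Mmp10 or Mmp13 all did so, from -4.16 for Mmp10 with Timp3 to -1.44 for Mmp3 with Timp2. These proteases were set apart after the values were seen, so this count follows from the gene differences and adds nothing to them. Of the 12 pairs of Mmp2, Mmp9 or Mmp14, 3 shifted by at least 2-fold, each of them with Timp3. Mmp14 with Timp2 moved 0.32 towards the protease.

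**Figure D4:**
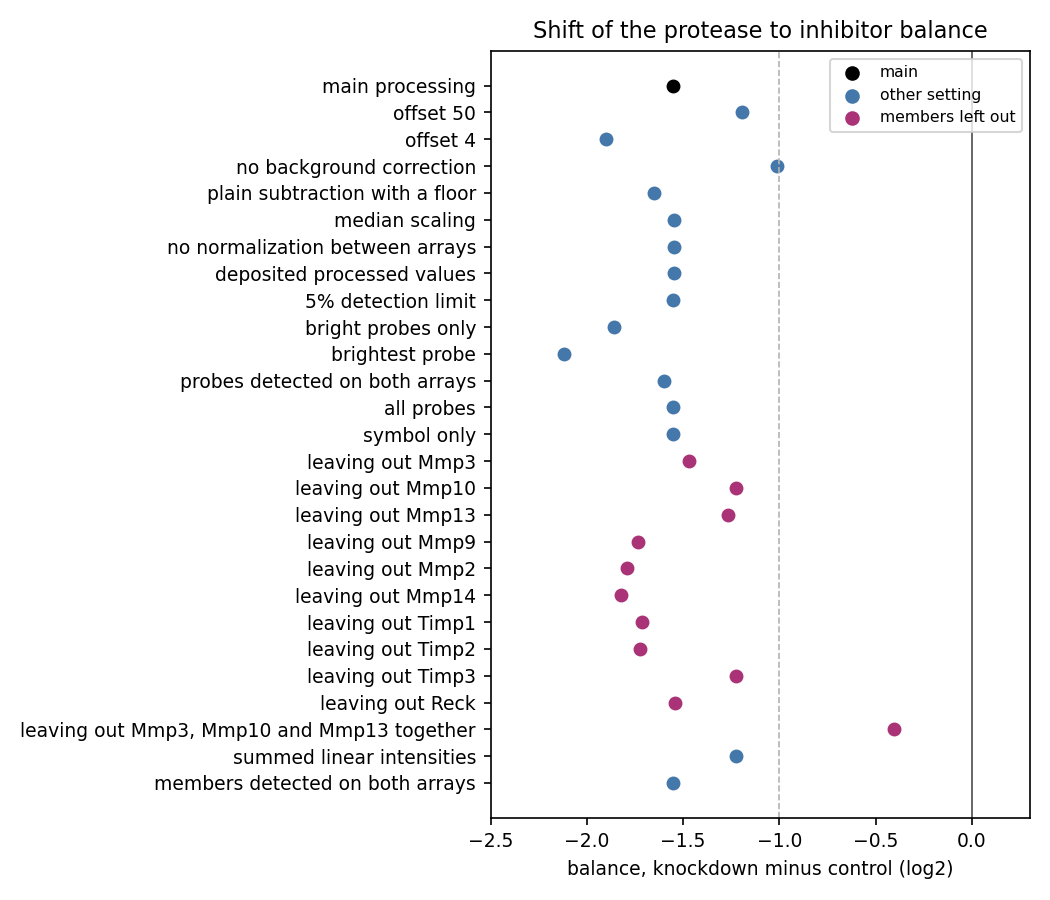
Shift of the protease to inhibitor balance (horizontal axis, log2, knockdown minus control) under the main processing (black), other settings (blue) and with members left out (purple). Every point lies below 0, and the point nearest to 0, at -0.40, leaves out Mmp3, Mmp10 and Mmp13 together.

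Genes ranked next to the members gave no further likeness than size, as 2 arrays hold 1 difference per gene. Saa3, an acute-phase serum amyloid gene, followed Mmp10 at -2.63. Nup210, a nuclear pore gene, at -2.58 and Scnn1g, a sodium channel subunit gene, at -2.14 stood on either side of Mmp13. Tmem125 and Cntnap4 bracketed Mmp3 at -1.55 and -1.54. Timp3 lay between Mettl24 at 1.35 and Col1a1, the fibrillar collagen gene, at 1.41.

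Most other metalloproteinase genes and all further inhibitor genes on the array were not above background, so no difference could be read for them. Of 17 further metalloproteinase genes on the array, 4 were detected on both arrays and none was 2-fold different. Mmp28, the epilysin gene, differed by 0.29, Mmp11 by 0.07 and Mmp24 by -0.06, and the list's median was 0.04. The Mmp28 reading was dim, 107 in the control and 114.8 in the knockdown at its brightest probe. Mmp19 was detected in the knockdown only, reading 93.9 and 97.4 at its brightest probe, and the other 12 were not above background. Of the 4 further inhibitor genes on the array (Timp4, Pzp, Serpine2 and Tfpi2), none was above background.

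Genes of activation, docking and clearance likewise stayed within 2-fold. Of 19 such genes, 15 were detected on both arrays, 1 was lower and 3 were higher by more than the probe SD, and the median was 0.07. By the same limit, 17.5% of all detected genes were lower and 16.5% higher, so 3 of 15 is near that share. The largest differences were 0.40 for Thbs2, a matricellular protein that takes part in Mmp2 uptake, 0.26 for the plasminogen activator gene Plat and 0.24 for the lysosomal protease gene Ctsb. Like Mmp14, Ctsb is on chromosome 14, whose detected genes had a median of 0.21. The part of that shift in the Ctsb value was not tested. The 1 lower gene was Furin, a proprotein convertase that activates Mmp14, at -0.23 as a mean over 2 probes. Its brightest probe read nearly the same on both arrays, 1357.5 in the control and 1354.4 in the knockdown. Lcn2, which binds Mmp9, read 5420.4 and 5945.8 and differed by 0.07. Of 7 sheddase genes on the array whose products Timp3 can bind or which are close relatives of such, 4 were detected on both arrays with a median of 0.01. Adam33, at 0.77, was the only one of those 4 beyond the probe SD. Its single probe was dim, reading 102.8 in the control and 124.5 in the knockdown, so that size depends on the background correction. Adam17 differed by 0.05 and Adamts4 by -0.03. Adam12 was detected in the knockdown alone, reading 91.8 in control and 115.4 in knockdown cells at its brightest probe.

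Genes of matrix proteins that these enzymes cut were higher more often than lower. Of 15 genes, 14 were detected on both arrays, 9 were higher and 3 lower by more than the probe SD, and the median was 0.42, beside -0.01 over all detected genes. Against the 16.5% of all genes higher and 17.5% lower by that limit, the count of lower genes is near the background share. Col1a1 read 190.3 and 406.8 at its brightest probe and was 2.66-fold higher as a gene. Col1a2 differed by 0.84 and Nid1, a basement membrane linker gene, by 0.72. The lower ones included Col3a1 at -0.60 and Vcan at -0.31. Vcan was dim, reading 100.2 in the control and 96.9 in the knockdown at its brightest probe, so its size depends on the background correction.

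**Figure D5:**
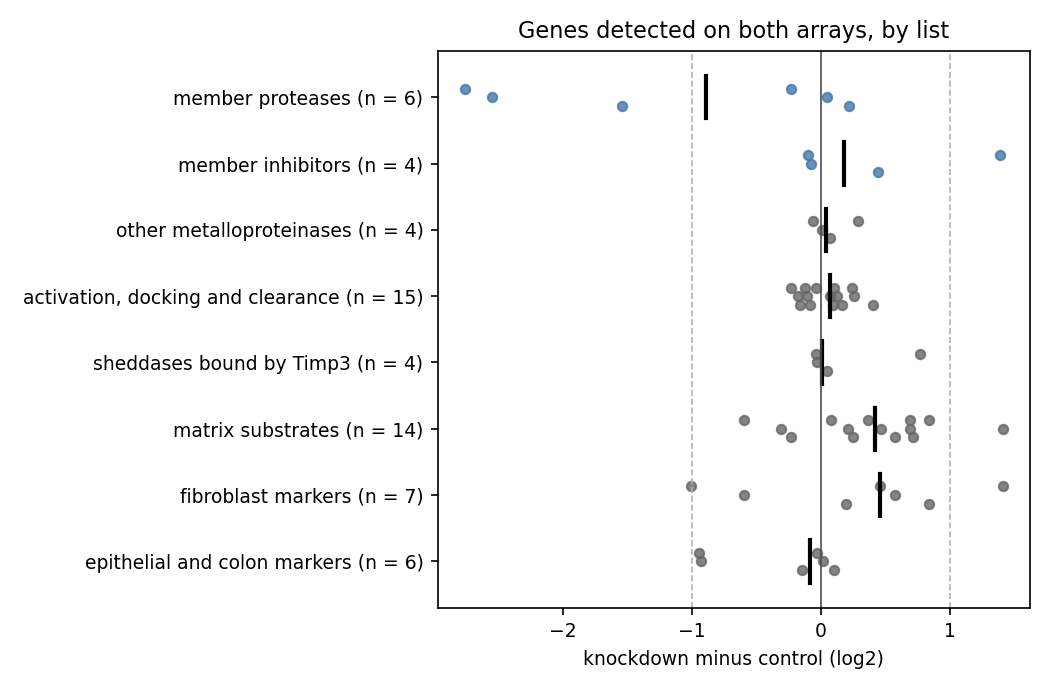
Differences (log2, knockdown minus control) of genes detected on both arrays, grouped by list. Points are genes, black bars are medians and dashed lines mark 2-fold. Member proteases spread from -2.76 to 0.22, while the other metalloproteinases lie between -0.06 and 0.29.

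Markers of cell types were read beside these values. Of 11 epithelial and colon markers, 6 were detected, and Epcam, Krt8, Krt18, Krt19 and Vil1 were not detected on either array. Each of these undetected markers had 1 probe, and a probe at background does not show that the transcript is absent. The detected ones were dim and had a median of -0.09, with Krt20 at -0.94, Cdx2 at -0.93 and Cdh1 at -0.14, and with Lgals4 at -0.03, Cdx1 at 0.02 and Cldn7 at 0.10, and the list's summed intensity above background was 150.3 for control and 99.8 for knockdown cells. Of 10 fibroblast markers, 9 were detected, with Thy1 not above background, and their summed intensity was 2986 and 5197. The fibroblast list's median was 0.46 over 7 genes detected on both arrays. Col1a1 was at 1.41 and Col1a2 at 0.84, but Pdgfrb was 2.01-fold lower and Col3a1 at -0.60. The Pdgfrb probe was dim, reading 135.4 in the control and 104.3 in the knockdown. Col1a1, Col1a2, Col3a1 and Dcn are also in the list of matrix proteins above, so these lists share genes and are not separate observations. Postn was detected in the control alone, reading 95.4 and 86.9, and Lum in the knockdown alone, reading 93.3 and 110.3 at its brightest probe. Dcn, a small proteoglycan gene, carried much of the sum, reading 1788.2 and 3097.7 at its brightest probe. Leukocyte markers were detected for 2 of 9 genes, endothelial markers for 3 of 8 and hepatocyte markers for 3 of 5. Their summed intensities were 159.0 and 129.1, 41.2 and 45.4, and 25.4 and 33.8. The detected leukocyte markers were Cd68, which read 236.7 and 206.2 and differed by -0.39, and Csf1r at -0.01. Ptprc, Cd3e and Itgam were among those not above background. Detected endothelial markers were Kdr at 0.26, Eng at 0.24 and Tie1 at -0.42, while Pecam1 and Cdh5 were not above background. Of the hepatocyte markers, Apoa1 was detected on both arrays at -0.20. Serpina1a was detected in the knockdown alone and Apob in the control alone, and Alb was not above background. The fibroblast list went both ways, with 5 genes above 0 and 2 below, and its part in the member differences was not tested. In bulk RNA of this kind, fewer cells with a transcript and less of it per cell cannot be told apart.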

How the data were processed

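Total RNA of 1 control and 1 knockdown culture of CT26 was isolated with a Qiagen RNeasy kit, labelled with biotin through an Ambion kit and hybridised to Illumina mouse bead arrays, per the labels' protocols. The main table holds a raw intensity per probe for 45281 probes, exported by GSGX 1.9.0 with no normalization or background subtraction, per the file headers. The authors' deposited processed intensity values served as an alternative; how they were made is not given in the sources used here, including centring and scaling. They are linear, with 29.8% below 0 on each array, medians of 3.4, and sorted columns that differ by at most 0.1.

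The background of each array was the peak of its dim probes, with the SD of the values below it mirrored upwards. Normexp correction at these values was followed by an offset of 16, quantile normalization and log2 (limma 3.58.1, R 4.3.3). Gene values are means over the probes that 1 array or both detected. A bound for a probe detected on 1 array sets its value there against the higher of the lowest detected value and its own value on the other array. Of 31508 probes with an Entrez gene number, 29586 matched RefSeq's GRCm38.p6 gene table, which updated symbols and gave gene order. Of the 19 member probes, 16 matched by gene number and 3 by symbol. The processing was tested on simulated arrays in which only probes bright on both arrays were given a fold change. That test does not cover the sizes read from dim probes. Promoters came from RefSeq, GRCm38.p6; protein sequences were not analysed here. With 1 array per group, the number of arrays limits precision.

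Members and lists were chosen with earlier results of these data known. Named genes were the 10 members, Cdk8, up to 3 genes with the largest differences (or all past 2-fold) of each further list, and the rank neighbours of members past 2-fold; genes outside this rule were chosen after their values were seen, and 1 gene of a further list is not reported here. Alternatives changed the offset, background correction, normalization, detection limit, source table, gene summary and gene matching.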

Additional observations from a re-analysis of the deposited data

How the results depend on the processing

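No direction reversed among the balance shift and the member genes. The balance shift was -1.55, and moved by more than the probe SD to -1.20 with an offset of 50, -1.90 with an offset of 4, -1.01 without background correction, -1.86 with bright probes only, -2.12 with the brightest probe of each gene and -1.23 with summed linear intensities. Leaving out Mmp10, Mmp13 or Timp3 gave -1.23, -1.27 and -1.23, leaving out Mmp2 or Mmp14 gave -1.79 and -1.82, and leaving out Mmp3, Mmp10 and Mmp13 together, chosen after seeing the data, gave -0.40. Mmp3, Mmp10 and Mmp13 stayed at least 2-fold lower under all 13 alternatives of gene value and scaling, although Mmp13 had no bright probe on the knockdown array, so that 2 members were counted with bright probes only. Timp3 fell below 2-fold, leaving 0 members at least 2-fold higher, with an offset of 50 and without background correction.

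Over all genes, 73 were at least 2-fold lower and 67 higher. These counts were 34 and 33 with an offset of 50, 156 and 128 with an offset of 4, 20 and 23 without background correction, and 124 and 104 with plain subtraction. With bright probes only, 44 were higher, where fewer genes were tested. By construction, the offset and the background correction set how far dim probes spread. Low signal over background on at least 1 array limits the sizes for Mmp10, Mmp13, Reck and the dimmer Timp3 and Mmp14 probes. No paired analysis was possible because each group has 1 array.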

Other observations

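Of the genes detected on both arrays, 8066 had a RefSeq promoter window, and 56 of them held both the AP-1 letters TGANTCA and TATAAA, a grouping looked at after the member values were seen. Among these 56 genes, the ones lower by at least 2-fold were the 3 members Mmp3, Mmp10 and Mmp13. The other 53 genes held 0 at least 2-fold lower and 0 at least 2-fold higher, and their median difference was -0.01, beside 0.01 over all 8066. Of the 516 genes with the AP-1 letters, 4 were at least 2-fold lower and 6 at least 2-fold higher (0.775% and 1.16%, against 0.558% and 0.570% of all 8066), and without the members 1 of 513 was lower. Of 722 genes with TATAAA, 9 were at least 2-fold lower (1.25%) and 3 higher, and without the members 6 of 719 were lower (0.834%).

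The 2 Timp1 probes gave similar readings, 2507.6 and 2493.7 in the control and 2450.8 and 2446.1 in the knockdown. The 3 Mmp13 probes, by contrast, had differences from -5.23 to -0.03.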
